A study of Rattus norvegicus with 16 samples.

Results

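The subject here is the effect of treadmill training on gene expression in rat soleus muscle, taken over 2 selected lines together. Soleus is a postural hindlimb muscle made mostly of slow-twitch fibres. The comparison sets all 8 trained rats against all 8 sedentary rats, with line kept as a factor, so that it uses all 16 arrays of the series and asks for the training difference averaged over the lines. All animals were female, from generation 16 of an artificial selection on treadmill running that started from N:NIH stock rats, and were about 7 months old. The 4 trained HCR (high capacity runner) rats and 4 trained LCR (low capacity runner) rats ran uphill at 25 degrees for 1.5 hours a day, 5 days per week for 8 weeks, in 8 minute intervals at 85 to 90% of maximal oxygen uptake. The 4 sedentary HCR and 4 sedentary LCR rats were of the same age, and were not exposed to training or to the oxygen uptake tests that the trained rats ran, so running and testing cannot be told apart. Muscle was taken 48 hours after the last session. Each array held RNA of 1 muscle, and all 31042 probe sets other than the array's controls were tested, of which 20826 carry 1 gene symbol and stand for 14217 genes.

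Endurance training is known to increase the mitochondria of skeletal muscle, its capillary supply and its use of fatty acids, and to shift fast fibres toward slower types. Soleus starts near the oxidative end of this range. Mitochondria make ATP with the respiratory chain: complexes I to IV pass electrons to oxygen and pump protons, and complex V, the ATP synthase, uses the proton gradient. Complex IV, cytochrome c oxidase, has several small nuclear-encoded subunits that exist in a form of heart and skeletal muscle and a form of most other tissues, and Cox7a1 is the heart and muscle form of subunit 7a.

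The arrays carried high signals of slow fibre and muscle genes. Each of 10 slow fibre and muscle markers, among them Myh7, slow myosin heavy chain, and Tnni1, slow troponin I, ranked high on every array, and the lowest such rank was the 95.7th percentile. HCR trained 3, whose low slow fibre mean is given below, ranked so too. The ranks thus cannot show that every array was of slow muscle. Array medians ran from 5.90 to 5.98 on the log2 scale, and pairs of arrays correlated at 0.941 to 0.996. Of the arrays, 2 stood apart, both from HCR rats. On HCR trained 3 the mean of the slow fibre genes was 2.20 log2 units below the average of all arrays, against values of 0.14 to 0.23 above it on the other HCR trained arrays. On HCR sedentary 2 the mean of the extracellular matrix genes was 1.59 above the average, against -0.30 to 0.00 on the other HCR sedentary arrays. Leaving them out changed many calls and list medians, and values without them stand beside the results they touch. In that setting 11.9% of all genes were higher and 6.56% lower at an unadjusted p under 0.05, against 6.82% and 4.21% with all arrays. Averaged over both lines, the 3 control measures of the arrays did not separate training states beyond their spread. The beta-actin index, the 3' minus the middle control probe set, was 1.59 ± 0.42 in trained and 1.42 ± 0.48 in sedentary rats (SD, n = 8 each, two-sided exact permutation within lines, p = 0.502, adjusted 0.652 over 3 measures). This average hides opposite directions in the lines. In HCR the index was 1.57 to 2.37 in trained and 0.38 to 1.59 in sedentary rats. In LCR the index was 1.06 to 1.36 in trained and 1.33 to 2.07 in sedentary rats. The GAPDH index, another of these measures, was 0.74 ± 0.38 in trained and 0.63 ± 0.09 in sedentary rats (SD, n = 8 each). The same exact permutation gave p = 0.652, adjusted 0.652, for it. The GAPDH index ran up to 1.67 in HCR trained rats, against highest values of 0.61 in LCR trained and 0.76 in sedentary rats.

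Training was accompanied by a higher signal of Cox7a1 in both lines, with the smallest p of all probe sets. In trained rats Cox7a1 read 8.68, 8.28, 8.96 and 8.97 on the log2 scale in HCR and 8.63, 8.19, 8.19 and 8.29 in LCR. In sedentary rats it read 6.67, 6.69, 6.52 and 7.01 in HCR and 6.81, 7.12, 6.74 and 5.94 in LCR. Every trained rat lay above every sedentary rat of either line, with a gap of more than 1 log2 unit between the lowest trained and the highest sedentary value. Cox7a1 rose by 1.84 (SE 0.15), a 3.57-fold difference, with means of 8.52 ± 0.33 in trained and 6.69 ± 0.36 in sedentary rats (SD, n = 8 each, limma adjusted p = 0.000173). An exact permutation of training labels within lines gave p = 0.000408 for Cox7a1, the smallest that the 4900 arrangements allow. The effect of training was 2.00 (SE 0.22) in HCR and 1.67 (SE 0.22) in LCR, and the difference between the lines, 0.32 (SE 0.31), had an interaction adjusted p of 0.602. The spread was widest in LCR sedentary rats, at SD 0.50 against 0.20 to 0.33 in the other groups, through 1 rat at 5.94. Cox7a1 is represented by 1 probe set with its symbol, and probe sets without a symbol were not searched for it.

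**Figure D1:**
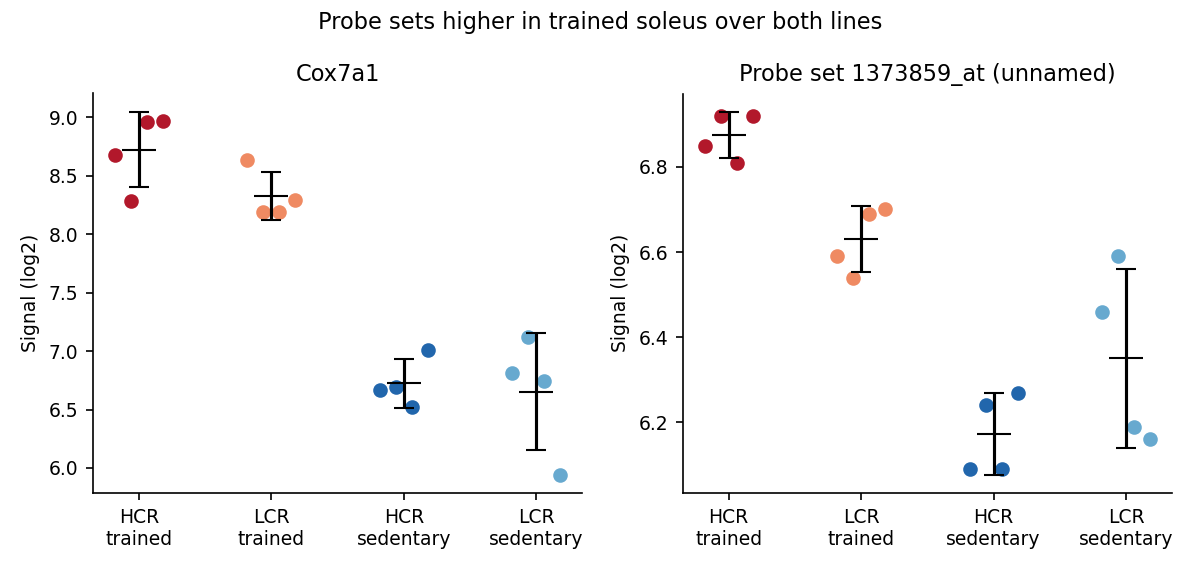
Signal on the log2 scale (vertical axis) of Cox7a1 and of the unnamed probe set 1373859_at in each rat, by group; points are rats, bars the group mean and SD of 4 rats. The 8 trained rats lie between 8.19 and 8.97 for Cox7a1, all above the 8 sedentary rats at 5.94 to 7.12, while the values of the unnamed probe set overlap in LCR.

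Of 31042 probe sets 2 passed an adjusted p of 0.05 by limma, which is 0.00644% of those tested, and both were higher in trained rats. The second is the probe set 1373859_at, to which the annotation used here gives no gene. In trained rats it read 6.85, 6.92, 6.81 and 6.92 in HCR and 6.59, 6.54, 6.69 and 6.70 in LCR. In sedentary rats it read 6.09, 6.24, 6.09 and 6.27 in HCR and 6.46, 6.59, 6.19 and 6.16 in LCR. All 4 trained HCR rats lay above all sedentary rats, whereas 2 of the trained LCR rats did not exceed the highest sedentary LCR rat. Probe set 1373859_at rose by 0.49 (SE 0.06, limma adjusted p = 0.0198; exact permutation p = 0.00122). Its effect was 0.70 in HCR and 0.28 in LCR, with an interaction adjusted p of 0.131. The call was lost when any of 8 single arrays was left out, with values between 0.46 and 0.50, whereas Cox7a1 passed without any single array, at 1.72 to 1.91.

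The other subunits of complex IV showed much smaller differences than Cox7a1. Most read far brighter, up to a mean of 13.97 in trained rats for Cox6a2, where the highest value on any array was 14.56. Whether differences are compressed at such signals was not tested. Cox4i2 and Cox5a, at means of 6.85 and 7.63 in trained rats, were as dim as Cox7a1 and differed by 0.19 and -0.02. Of 14 measured subunits and isoforms 11 were higher and 3 lower in trained rats, at a median difference of 0.08, and Cox7a1 alone passed. At an unadjusted p under 0.05 there were 3 higher and 0 lower, against 6.82% higher and 4.21% lower over all genes. Cox7c, a subunit with 1 form in all tissues, had 12.65, 12.81 and 12.85 as lowest, median and highest value in trained rats and 12.39, 12.64 and 12.77 in sedentary rats. The groups overlapped, with 5 of 8 trained rats above all sedentary rats, and the difference was 0.14 (SE 0.05, adjusted p = 0.398). Cox4i2, an alternative form of subunit 4 known from lung, differed by 0.19 and did not pass, with means of 6.85 in trained and 6.66 in sedentary rats. Of the other heart and muscle forms Cox6a2 differed by -0.05 (SE 0.05) and Cox8b by 0.10 (SE 0.09). Their counterparts of most other tissues, Cox6a1 and Cox8a, both differed by 0.08, with SEs of 0.09 and 0.10. Cox7a2l, a related protein known as a factor of respiratory supercomplex assembly, differed by -0.09 (SE 0.04, adjusted p = 0.545), with values of 11.04 to 11.19 in trained and 11.07 to 11.33 in sedentary rats. Cox4i1, the common form of subunit 4, differed by 0.07 (SE 0.04).

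Beyond these 2 probe sets the comparison gave many small differences that did not pass. At an unadjusted p under 0.05 there were 2963 probe sets, 9.55% of those tested against 1552 that chance alone would give, 1641 of them (5.29%) higher and 1322 (4.26%) lower in trained rats. The third smallest adjusted p was 0.0682, and 37 probe sets, 29 higher and 8 lower, lay under 0.10. Differences were small: 13 probe sets were over 1 log2 unit higher and 5 over 1 log2 unit lower, while the median SE was 0.07.

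Among genes ranked by p, those higher in trained rats after Cox7a1 did not pass, with adjusted p from 0.0746 to 0.0820. Crybg3, which encodes a protein with crystallin-type domains, had a lowest, median and highest value of 7.00, 7.20 and 7.56 in trained rats and 6.47, 6.75 and 6.92 in sedentary rats. No trained rat overlapped with a sedentary one, and the difference of 0.52 (SE 0.08) was 0.58 in HCR and 0.46 in LCR. Tspan3, a tetraspanin of cell membranes, had 9.88, 10.00 and 10.19 in trained and 9.50, 9.61 and 9.88 in sedentary rats, a difference of 0.37 (SE 0.06). Its groups nearly met but did not overlap. Stt3b, the catalytic subunit of an oligosaccharyltransferase that attaches sugars to new proteins, differed by 0.27 (SE 0.05), with trained rats at 9.65 to 9.89 and sedentary rats at 9.39 to 9.62. A dimmer Stt3b probe set differed by 0.05.

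Atp2b3, a plasma membrane calcium pump, differed by 0.78 (SE 0.13), with 5.44, 5.92 and 6.70 in trained and 4.94, 5.08 and 5.55 in sedentary rats. The highest trained values were in HCR, where the effect was 1.08 against 0.49 in LCR, and 7 of 8 trained rats lay above all sedentary rats. Its 2 other probe sets differed by 0.71 and 0.61 in the same direction. Sc5d, a desaturase of cholesterol synthesis, differed by 0.59 (SE 0.10), with 4 trained rats, all HCR, above every sedentary rat, and its other probe sets gave 0.43 and 0.25. Immp1l, part of the peptidase that trims proteins sent to the mitochondrial inner membrane, differed by 0.40 (SE 0.07). Card19, a caspase recruitment domain protein, differed by 0.39, Smpdl3a, a phosphodiesterase related to acid sphingomyelinase, by 0.61, St3gal2, a sialyltransferase, by 0.81, and Egf, epidermal growth factor, by 0.57. LOC102547411, a locus with no described product here, had the second largest difference of the 12, 0.99 (SE 0.17), with 1.52 in HCR and 0.46 in LCR. Of the 12 genes all had the same sign in both lines, which the ranking on an average of the lines favours.

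None of the genes lower in trained rats passed, and the 12 of smallest p had an adjusted p from 0.0728 to 0.102. Ino80c, a subunit of the INO80 chromatin remodelling complex, had 7.59, 7.87 and 8.06 in trained rats and 8.12, 8.25 and 8.46 in sedentary rats. The groups did not overlap, and the difference of -0.41 (SE 0.06) was -0.44 in HCR and -0.39 in LCR. A brighter Ino80c probe set differed by -0.26. Shmt1, the cytosolic enzyme that moves a one-carbon unit from serine to folate, had 6.56, 6.88 and 7.00 in trained and 7.09, 7.23 and 7.31 in sedentary rats, again without overlap, at -0.35 (SE 0.06). Supt3h, a subunit of a histone acetyltransferase complex, differed by -0.27 and Lrrfip1, a nucleic acid sensor and transcription regulator, by -0.53 (SE 0.11), both without overlap.

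The remaining lower genes overlapped between training states. Rcor2, a corepressor, differed by -0.52 (SE 0.09), Slc25a13, the mitochondrial carrier of aspartate and glutamate, by -0.28, Amotl1, an angiomotin family protein of cell junctions, by -0.27, and Aars1, alanyl-tRNA synthetase, by -0.22. Nkain1, a partner of the sodium pump, differed by -0.44, Pheta1, an adaptor of endosomal traffic, by -0.26, and Styxl1, a phosphatase relative without activity, by -0.24. Epc1, a chromatin regulator of the enhancer of polycomb family, read 5.88 to 6.14 in HCR trained rats and 6.36 to 6.60 in LCR trained rats, against 6.46 to 6.78 in HCR and 6.46 to 6.70 in LCR sedentary rats. Its difference of -0.32 thus averages -0.55 in HCR and -0.08 in LCR (interaction adjusted p = 0.121), and its brighter probe set differed by -0.02.

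**Figure D2:**
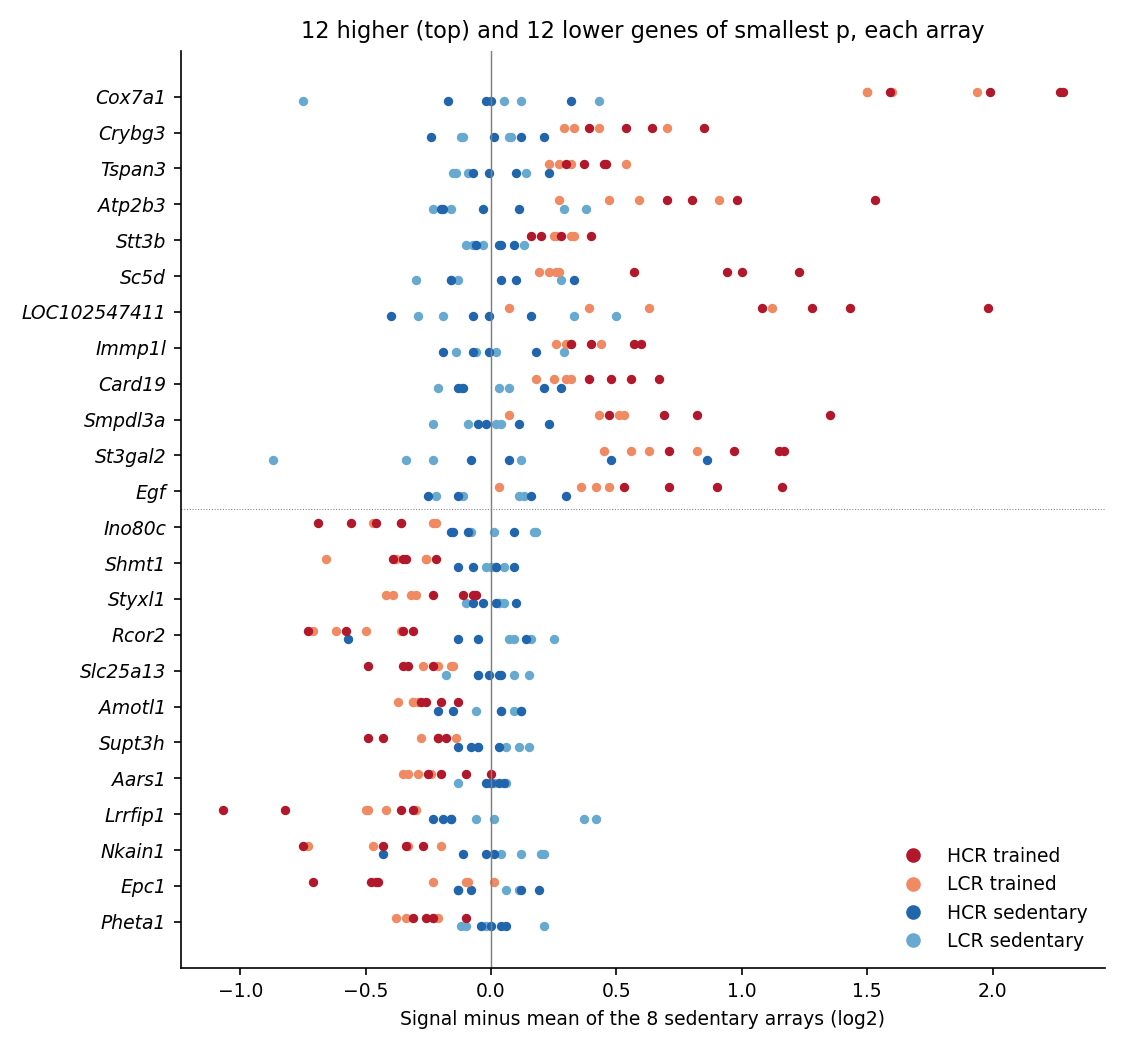
Signal of each rat minus the mean of the 8 sedentary rats (horizontal axis, log2 units) for the 12 higher and 12 lower genes of smallest p over both lines; within each gene trained rats are drawn above sedentary rats. Cox7a1 stands clear at 1.51 to 2.28, and the mean differences of the other genes are under 1.

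In 26 probe sets, 0.0838% of those tested, all 8 trained rats lay on one side of all 8 sedentary rats, above them in 18 (0.058%) and below them in 8 (0.0258%). Plcl1, an inactive relative of phospholipase C, differed by 0.55 (SE 0.11), with 6.22 to 7.31 in trained and 5.80 to 6.18 in sedentary rats. Fzd8, a Wnt receptor, differed by 0.30, and Tmed7, a cargo receptor of the early secretory pathway, by 0.28. Slc4a3, an anion exchanger that swaps chloride and bicarbonate, had 5.92, 8.88 and 9.21 in trained and 9.24, 10.07 and 10.57 in sedentary rats. The value of 5.92 belongs to HCR trained 3, and the other trained rats started at 8.38. The difference of Slc4a3 was -1.47 (SE 0.39, adjusted p = 0.207) with all arrays and -1.0 (adjusted p = 0.0204) without the 2 arrays that stand apart. Htt, huntingtin, and Ldb3, a protein of the muscle Z disc, were lower by small amounts, -0.21 and -0.20, and Ldb3 has 6 probe sets.

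An average over lines can hide effects that run in opposite directions, so the 2 lines were set side by side. Across 31042 probe sets the training differences of HCR and LCR correlated at r = -0.38, and the sign was opposite in 18065 of them, 58.2%. The values share no arrays between lines, but probe sets are not independent of each other. Without the 2 arrays that stand apart r was -0.24 with 51.7% opposite, and with any single array left out r lay between -0.47 and -0.21. The test of the difference between lines found 0 probe sets by limma at an adjusted p of 0.05, while 5673 (18.3%) had an unadjusted p under 0.05. The count past the adjusted p of 0.05 was 22 without both of those arrays, 185 without HCR sedentary 4 and 24 without HCR trained 3. Once the fit also held each array's beta-actin index, 1305 probe sets had an unadjusted interaction p under 0.05. Chance alone would give 1552. The GAPDH control measure, used likewise, left 4526, and both fits gave 0 at an adjusted p of 0.05. The beta-actin index itself ran in opposite directions in the lines, so its part cannot be separated here. Whether the opposite signs remain in that fit was not tested.

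**Figure D3:**
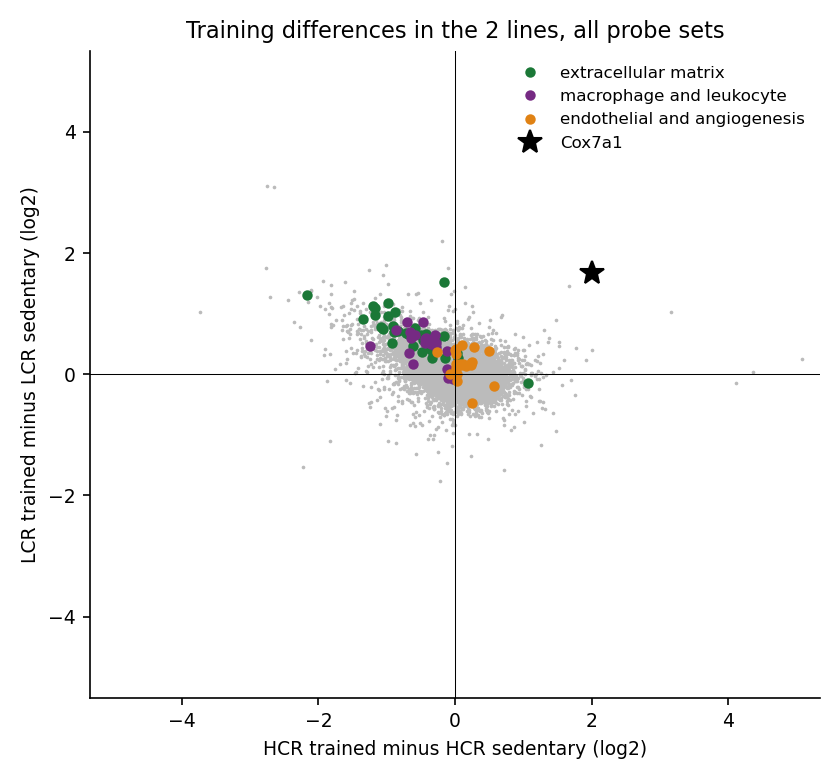
Training difference in LCR (vertical axis) against that in HCR (horizontal axis), both as trained minus sedentary on the log2 scale, for all 31042 probe sets in grey with 3 gene lists in colour. Cox7a1, the star, lies far out at 2.00 and 1.67, endothelial genes lie mostly above 0 on both axes, and matrix and macrophage genes fill the quadrant lower in HCR and higher in LCR.

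Connective tissue and immune cell genes had opposite differences in the lines that cancelled in the average. Of 33 extracellular matrix genes 31 (93.9%) had opposite signs in the lines, against 57.4% of all genes. The matrix median was -0.62 in HCR, 0.68 in LCR and -0.01 over both. Col1a1 and Col3a1, fibrillar collagens, differed by -1.20 and -1.17 in HCR and by 1.12 and 0.98 in LCR. Postn, a matrix protein of remodelling tissue, differed by -2.17 in HCR and 1.31 in LCR, and over both lines by -0.43. Of 22 macrophage and leukocyte markers 20 (90.9%) had opposite signs, at medians of -0.43 in HCR, 0.53 in LCR and 0.06 over both. Their mean per array ran from -0.63 to 0.52 in trained and from -0.38 to 1.23 in sedentary rats. None of these genes passed in the pooled comparison or the interaction. In RNA from whole muscle, fewer cells of a type and less RNA per cell cannot be told apart.

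The matrix mean per array was high on single arrays of both training states. It was 1.12 on LCR trained 2 and 1.59 on HCR sedentary 2, and the other trained and sedentary arrays lay between -0.58 and 0.37 and between -0.49 and 0.06. Without HCR sedentary 2 and HCR trained 3 the pooled matrix median was 0.23, with all 33 genes higher, and the HCR median was -0.16. The macrophage median was then 0.32 over both lines and 0.02 in HCR. That setting keeps LCR trained 2, where the matrix mean was high. With LCR trained 2 alone left out, the pooled medians were -0.12 for matrix and 0.01 for macrophage genes. Dcn, decorin, a proteoglycan of collagen fibrils, had the smallest pooled p of the matrix list, at 0.23 (SE 0.09), with -0.17 in HCR and 0.63 in LCR (interaction adjusted p = 0.0983). Adipocyte markers also ran apart, at medians of 0.43 in HCR and -0.47 in LCR and 0.02 over both, and their mean was 1.39 and 1.31 on HCR trained 1 and 4 against -0.74 to 0.19 on the other trained arrays and -0.68 to 0.55 on the sedentary arrays. How much fat or connective tissue moved with the muscle RNA was not tested.

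Genes of the respiratory chain leaned toward higher values in trained rats in small steps. In complex I, which takes electrons from NADH, 31 of 34 genes had higher values, the median was 0.13, and 13 had an unadjusted p under 0.05, all higher, against 6.82% higher over all genes. Without the 2 arrays that stand apart 27 of 34 were higher. There 6 higher and 1 lower had an unadjusted p under 0.05, against 11.9% and 6.56% of all genes. None but Cox7a1 of the chain's genes passed. Ndufv3, an accessory subunit of complex I, had 11.00, 11.62 and 11.96 in trained rats and 10.68, 11.20 and 11.55 in sedentary rats, a difference of 0.41 (SE 0.13, adjusted p = 0.292). Most trained rats, 5 of 8, lay above all sedentary rats. Ndufa12, another accessory subunit, differed by 0.23 (SE 0.08). In complex III all 8 genes had higher values and the median was 0.12, with Uqcr10 at 0.14 and Uqcrh at 0.15, and in complex V 13 of 14 were higher at 0.06, with Atp5mf at 0.19 and Atp5po at 0.18. The 4 genes of complex II, succinate dehydrogenase, had a median of 0.04 and opposite signs in the lines, which 57.4% of all genes had.

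These medians rested mostly on HCR. In complex I the median was 0.22 in HCR and 0.04 in LCR, in complex III 0.19 and 0.02, and in complex V 0.10 and 0.01. The complex I mean of HCR sedentary 2 was -0.49, the lowest of all arrays, against -0.06 to 0.09 on the other HCR sedentary arrays. Without that array the medians over both lines were 0.08 for complex I, 0.06 for complex III and 0.02 for complex V, and that of complex II was -0.04. Over all genes on the array 48.0% were higher in trained rats.

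Regulators of mitochondrial biogenesis showed no common direction, with 11 of 20 higher at a median of 0.01. Ppargc1a, the coactivator PGC-1 alpha, had 7.63, 8.14 and 8.33 in trained and 7.13, 7.82 and 8.18 in sedentary rats. The groups overlapped widely, with 3 of 8 trained rats above all sedentary rats, and the difference was 0.30 (SE 0.14, adjusted p = 0.535). Its other probe sets differed by 0.71 and -0.04. Tfam, the factor that packages and transcribes mitochondrial DNA, differed by 0.06 (SE 0.04), Gabpa, a subunit of nuclear respiratory factor 2, by 0.26 and Pprc1, a relative of Ppargc1a, by -0.19. Of 67 mitochondrial ribosome genes 52 were higher at a median of 0.05, but 53 (79.1%) had opposite signs in the lines, against 57.4% of all genes. The list medians were 0.20 in HCR and -0.07 in LCR. Mrpl39 and Mrpl42, proteins of the large subunit, differed by 0.38 and 0.27. The list of mitochondrial import and folding genes had a median of -0.04, with Lonp1, a matrix protease, at -0.20 and Opa1, which fuses inner membranes, at 0.13.

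Genes of fuel use gave mixed values. Among genes of glycolysis and glycogen 15 of 23 were higher, the median was 0.18, and 3 had an unadjusted p under 0.05, all higher. Over all genes 6.82% were higher and 4.21% lower at that p. Aldoa, aldolase A, had 14.03, 14.13 and 14.44 in trained and 13.87, 13.99 and 14.05 in sedentary rats. All but 1 of the trained rats lay above every sedentary rat, and the difference was 0.19 (SE 0.05, adjusted p = 0.236). Pgk1, phosphoglycerate kinase, differed by 0.24 (SE 0.07). The glycolysis median was 0.07 without HCR trained 3 and 0.05 without both arrays that stand apart. In the latter setting 4 were higher and 2 lower at an unadjusted p under 0.05, against 11.9% and 6.56% of all genes. In the citric acid cycle 12 of 17 genes were higher at 0.06, while the median was 0.01 without both arrays that stand apart. Of these 17 genes 12 (70.6%) had opposite signs in the lines, against 57.4% of all genes. Cs, citrate synthase, often measured as an index of training, differed by 0.17 (SE 0.08, adjusted p = 0.523), with 0.33 in HCR and 0.01 in LCR. Idh3a, a subunit of isocitrate dehydrogenase, differed by 0.49, with 0.82 in HCR and 0.16 in LCR.

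Fatty acid oxidation had 12 of 22 genes higher at a median of 0.05, and 0 at an unadjusted p under 0.05 in either direction. Its median was 0.22 in HCR and -0.11 in LCR, and over both lines it was -0.14 without HCR sedentary 2. Without both arrays that stand apart it was -0.05. In that setting 1 gene was higher and 3 lower at an unadjusted p under 0.05, against 11.9% and 6.56% of all genes. Eci2, an isomerase of fatty acid oxidation, differed by 0.36 and Acadm, medium-chain acyl-CoA dehydrogenase, by 0.18. Lpl, lipoprotein lipase, differed by -0.22 with all arrays and by 0.06 without HCR trained 3, where it read 10.52. Pnpla2, the lipase that starts the breakdown of stored fat, differed by 0.33. Pdk4, the kinase that shuts off pyruvate dehydrogenase, ranged from 9.68 to 11.74 in trained and 8.87 to 11.89 in sedentary rats, and Ucp3, an uncoupling protein, from 7.00 to 9.52 and from 6.92 to 8.50. Their differences of 0.28 and 0.39 were smaller than or close to their SEs of 0.41 and 0.34. Slc2a4, the insulin-responsive glucose transporter, differed by 0.21 (SE 0.15), Hk2, hexokinase 2, by -0.23 (SE 0.23), and the insulin signalling kinases Akt1 and Akt2 by -0.19 and -0.14. Auh, which acts in the breakdown of leucine, differed by 0.34 (SE 0.08, adjusted p = 0.142), with 0.58 in HCR and 0.11 in LCR. Its list of branched-chain amino acid breakdown had a median of 0.04 with all arrays and -0.02 without the 2 arrays that stand apart. In that setting Aldh6a1, an enzyme of valine breakdown, fell by 0.32 (adjusted p = 0.044), against a difference of -0.21 (adjusted p = 0.671) with all arrays.

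Fast fibre genes had the highest median of all lists with all arrays, 0.35, with 19 of 20 genes higher. At an unadjusted p under 0.05 there were 8, all higher, against 6.82% higher over all genes. The list median was 0.39 in HCR and 0.17 in LCR. Myh4, the fastest adult myosin heavy chain, read 11.08, 8.43, 13.57 and 9.98 in HCR trained and 5.53, 5.80, 4.84 and 4.95 in LCR trained rats. In sedentary rats Myh4 read 4.76, 8.03, 4.88 and 5.05 in HCR and 4.83, 5.13, 5.03 and 5.10 in LCR. All 4 HCR trained rats were thus above all sedentary rats, while LCR trained rats lay below the highest of them. The pooled difference of 2.67 (SE 0.61, adjusted p = 0.148) averages 5.09 in HCR and 0.26 in LCR, and the interaction had an adjusted p of 0.110. Actn3, the fast fibre actinin, and Pvalb, the calcium buffer parvalbumin, had the same form, at 4.36 and 4.11 in HCR and 0.03 and -0.14 in LCR. On LCR sedentary 4 the list mean was -0.87, against -0.41 to 0.01 on the other LCR sedentary arrays. The fast fibre median was 0.24 without that array and 0.21 without HCR trained 3. Without both arrays that stand apart it was 0.19, with 0.14 in HCR and 0.17 in LCR, which is below the macrophage (0.32), matrix (0.23) and endothelial (0.20) medians of that setting. There Myh4 (2.60, adjusted p = 0.0113) and Pvalb (1.54, adjusted p = 0.0113) passed, and 0.329% of all probe sets passed as higher. That setting leaves out HCR sedentary 2, whose Myh4 of 8.03 was the highest of the sedentary rats. Both arrays left out are from HCR, so the LCR differences of 0.26 for Myh4 and -0.14 for Pvalb are unchanged.

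Some fast fibre genes had higher values in both lines, and others mainly in LCR. Eno3, muscle enolase, had 13.33, 13.56 and 14.12 in trained and 13.09, 13.33 and 13.47 in sedentary rats, with 7 of 8 trained rats above all sedentary rats. Its difference was 0.30 (SE 0.09, adjusted p = 0.244), 0.40 in HCR and 0.21 in LCR. Mybpc2, fast myosin-binding protein C, differed by 3.17 in HCR and 1.02 in LCR, and Casq1, the main calcium store protein of fast fibres, by 0.28 and 0.11. The fast troponins Tnnt3 and Tnni2 differed by 0.76 and 0.68 in LCR and by 0.07 and -0.01 in HCR. Myh2 and Myh1, the IIA and IIX myosin heavy chains, differed by 0.13 (SE 0.11) and 0.10 (SE 0.08) over both lines.

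Slow fibre genes had a median of -0.30 with 13 of 14 lower, and this rested on 1 array. Without HCR trained 3 the median was -0.01. Myh7, slow myosin heavy chain, read 12.05 on that array, with a median of 14.43 in trained rats and values of 14.39 to 14.52 in sedentary rats, and its difference was -0.33 (SE 0.26, adjusted p = 0.742). Ankrd2, a stretch-responsive protein of slow fibres, differed by -0.84 (SE 0.55), with 8.48, 13.16 and 13.44 in trained and 13.02, 13.24 and 13.89 in sedentary rats. Pln, phospholamban, the inhibitor of the slow calcium pump, was the 1 member higher, at 0.25. Among calcium handling genes Camk2b, a calcium-dependent kinase, had 10.92 to 11.53 in trained and 11.38 to 11.72 in sedentary rats and differed by -0.32 (SE 0.08, adjusted p = 0.202), with -0.21 in HCR and -0.42 in LCR. Without the 2 arrays that stand apart Camk2b fell by 0.27 (adjusted p = 0.0481). The median of the 23 calcium handling genes was -0.02 with all arrays, with 0 higher and 2 lower at an unadjusted p under 0.05. Over all genes 6.82% were higher and 4.21% lower at that p. Without the 2 arrays the calcium handling median was -0.10, with 0 higher and 8 lower, against 11.9% and 6.56% of all genes. Rcan1, a calcineurin inhibitor, differed by -0.66, as the mean of -1.58 in HCR and 0.26 in LCR.

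Endothelial and angiogenesis genes leaned the same way in both lines. Of 21 measured genes 18 were higher in trained rats, and the median was 0.15, with 0.08 in HCR and 0.17 in LCR. In 16 of them the difference was positive in both lines and in 5 (23.8%) the signs were opposite, the lowest share of any list, against 57.4% of all genes. At an unadjusted p under 0.05 there were 8 higher and 0 lower, against 6.82% and 4.21% of all genes, and none passed with all arrays. Pecam1, an adhesion protein of endothelial cells, read 8.76, 8.61, 7.97 and 8.61 in HCR trained and 8.63, 8.58, 8.51 and 8.44 in LCR trained rats. In sedentary rats Pecam1 read 8.16, 8.37, 8.14 and 8.14 in HCR and 8.34, 8.11, 7.89 and 8.00 in LCR. All trained rats but HCR trained 3 were above all sedentary rats, and the difference was 0.37 (SE 0.10, adjusted p = 0.222).

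Sox17, a transcription factor of arterial endothelium, had 7.61, 8.33 and 8.55 in trained and 7.61, 7.76 and 8.10 in sedentary rats, with HCR trained 3 again lowest among the trained. Its difference was 0.44 (SE 0.12), with 0.50 in HCR and 0.38 in LCR. Sox18, of the same family, differed by 0.29 and Eng, endoglin, a coreceptor of endothelial cells, by 0.22, both mainly in LCR. Tek, the angiopoietin receptor, differed by 0.21, with 0.23 in HCR and 0.18 in LCR. The growth factor Vegfa differed by 0.06 (SE 0.10), and its receptors Kdr and Flt1 by 0.19 and 0.20. Without the 2 arrays that stand apart the list's median was 0.20, 11 of its genes were higher at an unadjusted p under 0.05, and Pecam1 (0.48, adjusted p = 0.0113), Sox17 (0.53, adjusted p = 0.0312) and Tek (0.28, adjusted p = 0.0371) rose past the threshold over all probe sets. In that setting 102 probe sets, 0.329% of 31042, passed as higher. Over all genes there, 48.9% had higher values and 11.9% were higher at an unadjusted p under 0.05. Markers of other cell types moved with the list there: the macrophage median was 0.32, with 13 of 22 genes higher at an unadjusted p under 0.05, and the matrix median 0.23, with all 33 genes higher. In LCR these medians were 0.53 and 0.68, against 0.17 for endothelial genes, and their part in the endothelial values was not tested. With LCR trained 2 alone left out, the pooled medians were 0.01 for macrophage, -0.12 for matrix and 0.15 for endothelial genes. Smooth muscle and pericyte markers had a median of 0.09, with Notch3 at 0.18 and Des, desmin, which muscle fibres also make, at -0.20.

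Most genes that respond at once to stimulation had lower values over both lines in trained rats, 48 hours after the last session, and none passed with all arrays. Of 25 immediate early genes 22 were lower at a median of -0.11. At an unadjusted p under 0.05 there were 4 lower and 1 higher, against 4.21% and 6.82% of all genes. The median was -0.17 in HCR and 0.04 in LCR, and 15 genes (60.0%) had opposite signs in the lines, against 57.4% of all genes. Over both lines it was -0.07 without HCR sedentary 2 and -0.09 without both arrays that stand apart, where 7 of 25 genes were higher. Nr4a2, an orphan nuclear receptor induced by muscle activity, had 5.52, 6.13 and 6.78 in trained and 6.23, 6.94 and 8.44 in sedentary rats. Of the trained rats 5 lay below all sedentary rats, and the difference was -1.0 (SE 0.26, adjusted p = 0.203), with -0.87 in HCR and -1.13 in LCR. Fos, a subunit of the AP-1 factor, had 7.95, 8.54 and 10.15 in trained and 8.95, 9.55 and 10.17 in sedentary rats, a difference of -0.87 (SE 0.23, adjusted p = 0.208). The trained value of 10.15 belongs to LCR trained 2 alone, and 6 trained rats lay below all sedentary rats. Without the 2 arrays that stand apart Nr4a3 fell by 0.56 and Ier3 by 0.64, with adjusted p of 0.0244 and 0.0411.

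Clock genes had no common direction. Dbp, a factor that the clock drives, differed by -0.40 (SE 0.15, adjusted p = 0.412) and Per1, a clock repressor, by -0.22 (SE 0.08). Of 17 genes 3 were lower at an unadjusted p under 0.05, against 4.21% of all genes. In both lines 5 genes were higher, among them Bmal1 at 0.34 in HCR and 0.35 in LCR, and 6 were lower. The other 6 (35.3%) had opposite signs in the lines, against 57.4% of all genes. The list median was -0.06 with all arrays, 0.08 without HCR trained 2 and -0.17 without the 2 arrays that stand apart. The hour at which muscles were taken is not used here, and its part was not tested.

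Heat shock and ribosome genes had lower values over both lines by small amounts, and none passed. Among 23 measured heat shock genes, 21 had lower values in trained rats and the median was -0.08. There were 4 lower at an unadjusted p under 0.05, against 4.21% of all genes. Hspb2, a small heat shock protein of muscle, had 9.10, 9.47 and 9.84 in trained and 9.53, 9.70 and 10.10 in sedentary rats, a difference of -0.28 (SE 0.10, adjusted p = 0.355). Hsp90ab1, a constitutive chaperone, differed by -0.19. The heat shock median was -0.32 in HCR and 0.08 in LCR. Without the 2 arrays that stand apart it was -0.03 over both lines and -0.11 in HCR, and 9 of 23 genes were higher. All 26 cytosolic ribosome and elongation genes were lower at a median of -0.13, with 11 at an unadjusted p under 0.05 against 4.21% of all genes. Rpsa, a protein of the small subunit, had 12.01, 12.33 and 12.48 in trained and 12.43, 12.53 and 12.85 in sedentary rats. All but 1 of the trained rats lay below every sedentary rat, and the difference was -0.24 (SE 0.07, adjusted p = 0.223). Eef2, the elongation factor, differed by -0.25. The ribosome median was -0.28 in HCR and -0.01 in LCR, and -0.08 over both lines without the 2 arrays that stand apart, where 3 of 26 genes were higher.

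Antioxidant and protein breakdown lists held single genes of larger difference. Sod2, the superoxide dismutase of mitochondria, had 11.32, 11.46 and 11.55 in trained and 11.11, 11.27 and 11.39 in sedentary rats, a difference of 0.18 (SE 0.05, adjusted p = 0.225) that was 0.20 in HCR and 0.16 in LCR. Of the trained rats 5 lay above all sedentary rats. Sod3, the secreted form, differed by 0.52 (SE 0.14), with 0.86 in HCR and 0.18 in LCR, and Gpx3, a secreted glutathione peroxidase, by 0.37. The list of 26 antioxidant genes had a median of -0.03. Becn1, which starts autophagosomes, differed by -0.11 (SE 0.04) and Map1lc3a, a protein of their membrane, by 0.29 (SE 0.09), in a list with a median of 0.02, or -0.03 without the 2 arrays that stand apart. Igf2, a growth factor, had 8.62, 9.53 and 10.92 in trained and 9.62, 10.45 and 11.02 in sedentary rats and differed by -0.77 (SE 0.21, adjusted p = 0.225), with -1.35 in HCR and -0.20 in LCR. The interleukin Il15 differed by 0.59 (SE 0.27), and Mstn, myostatin, a brake on muscle growth, by 0.08. Among satellite cell and regeneration genes, which had a median of -0.14, with -0.30 in HCR and 0.07 in LCR, Cdh15, a cadherin of muscle precursors, differed by 0.34 and Chrng, the fetal subunit of the acetylcholine receptor, by -0.33. That median was -0.07 without HCR sedentary 2, -0.08 without HCR trained 3 and -0.05 without both.

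**Figure D4:**
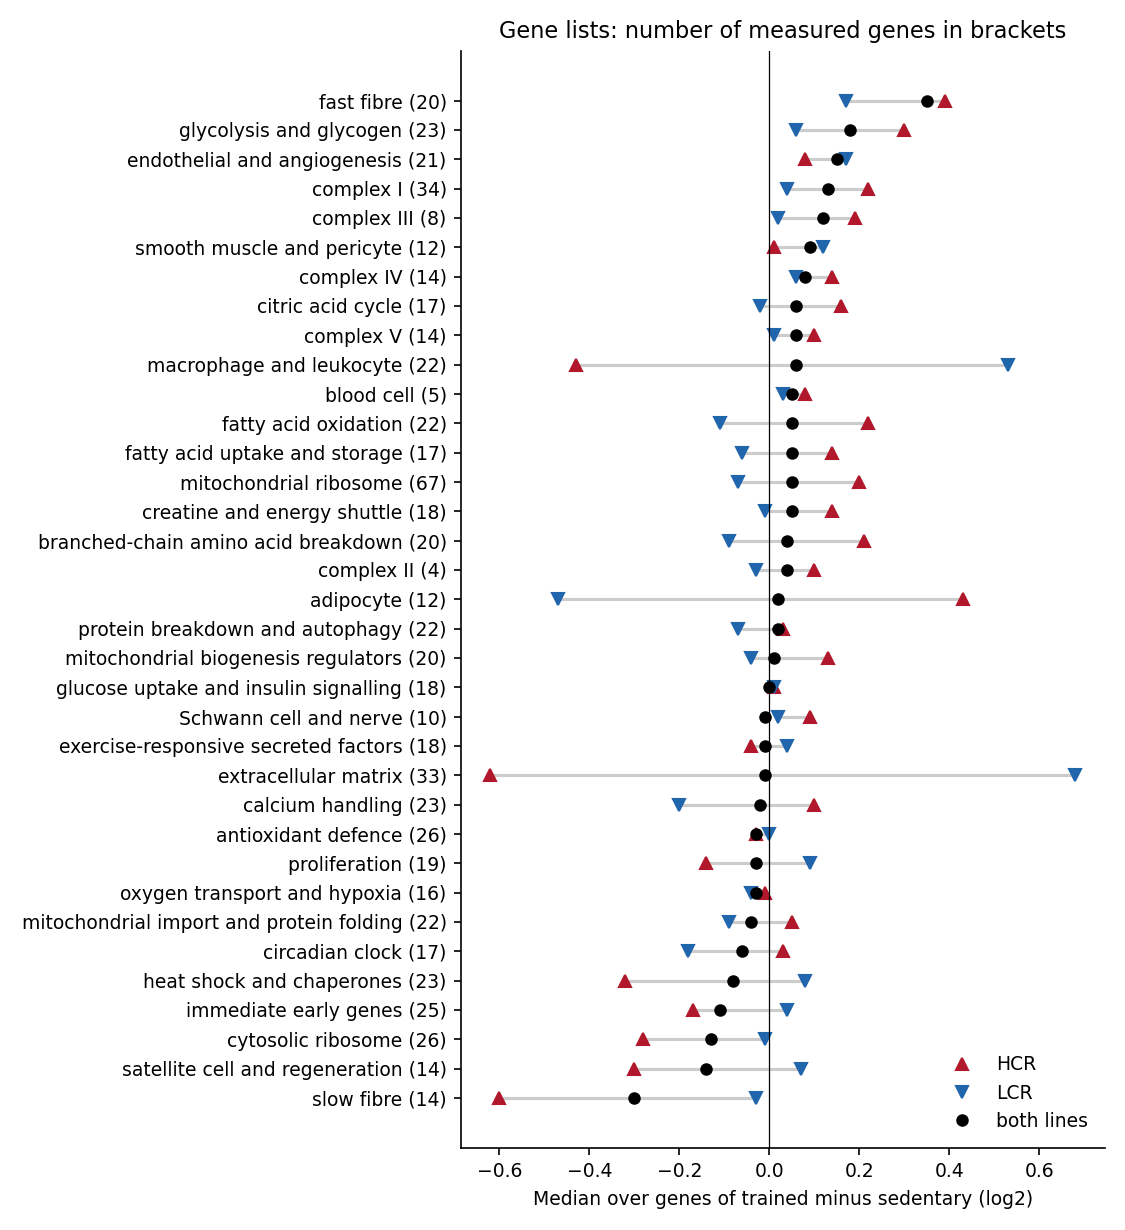
Median over the measured genes of 35 lists of the trained minus sedentary difference (horizontal axis, log2 units), for HCR, LCR and both lines together, with the number of genes in brackets. Matrix, macrophage and adipocyte lists lie on opposite sides of 0 in the lines, and the endothelial list lies at 0.08 and 0.17.

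The number of calls depended strongly on single arrays. Without HCR trained 3 there were 72 probe sets past the threshold, 61 higher and 11 lower, without LCR sedentary 2 there were 50, and without HCR sedentary 2 there were 13. Leaving out any other array gave 1 to 4. Without HCR trained 3 and HCR sedentary 2 together there were 131, 0.422% of those tested, 102 higher and 29 (0.0934%) lower, and all 131 had the same sign as with all arrays. These calls included 30 of the 37 probe sets with an adjusted p under 0.10 in the comparison of all 16 rats. Among them were Crybg3 (0.56), Tspan3 (0.38), Atp2b3 (0.67), Sc5d (0.58) and Egf (0.58), which rose, and Ino80c, Shmt1 and Rcor2, which fell by 0.40, 0.37 and 0.57 in that setting. Both fits share the other arrays, and the 2 left out were picked in these same data. The shared signs and the overlap of calls are therefore largely built in.

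**Figure D5:**
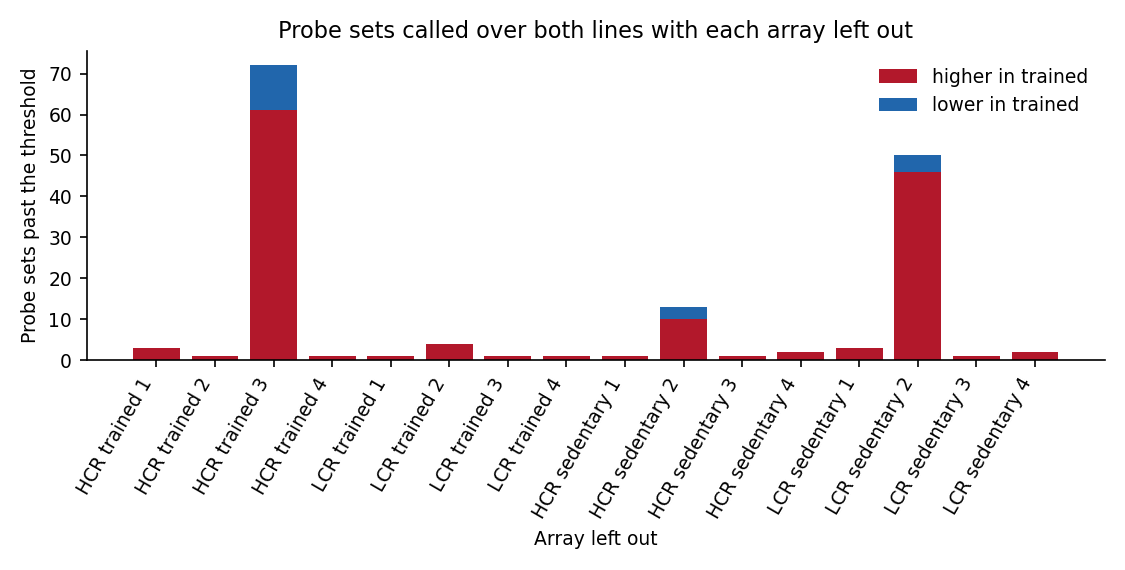
Number of probe sets past an adjusted p of 0.05 for trained against sedentary over both lines (vertical axis, bars from 0, higher and lower stacked) with each of the 16 arrays left out in turn (horizontal axis). The bars reach 72 without HCR trained 3, 50 without LCR sedentary 2 and 13 without HCR sedentary 2, and 1 to 4 otherwise.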

How the data were processed

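Total RNA of soleus muscle from 16 rats was biotin-labelled and hybridised to Affymetrix rat arrays, 1 rat per array, per the labels' protocols. The authors deposited 1 log2 value for each probe set and array. Per the submitters' processing notes RMA and limma were used, without versions or order, and whether all arrays were summarised together is not given in the sources used here. RMA makes differences relative to the bulk of the array, and no detection calls came with the values. The number of arrays limits the precision. From the table, 57 control probe sets were left out of 31099. Symbols came from the platform annotation: 20826 probe sets had 1 symbol, 436 several and 9780 none, and 20758 were matched by gene identifier to the RefSeq table of assembly GRCr8, with 0 symbols changed.

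In R 4.3.3, limma 3.58.1 fitted 4 group means (lmFit and eBayes without trend, 12 residual degrees of freedom), and the contrast was the mean over lines of trained minus sedentary, with Benjamini-Hochberg adjustment over 31042 probe sets at 0.05. Data were also simulated with independent normal noise for each probe set, without arrays that stand apart or genes that vary together. There this fit recovered 77.6% of differences of 0.5 and 98.5% of those of 1 on the log2 scale. The share recovered in the real arrays was not measured. Exact permutations were made within lines. Named were probe sets past the threshold, the 12 genes of smallest p in each direction with 1 symbol and a mean at or above the 40th percentile (5.61) in the brighter training state, the 2 of smallest p in each of 35 lists, and 21 key genes, of which Cox7a2 was not analysed here. Other members named, and the genes whose groups do not overlap, were chosen after their values were seen. Lists take each gene by its brightest probe set, and some genes stand in more than 1 list. The members and lists were chosen with earlier results of these data known. The labels number the rats 1 to 4 in each group. Same-numbered rats of the same line correlated in their deviations at -0.13 to 0.13, so the numbers were not taken as pairs. The alternatives were other models, scalings, filters, weights, covariates, and arrays left out.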

Additional observations from a re-analysis of the deposited data

Results flagged for a closer look

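Groups of 4 arrays were searched for a rat far from the other 3 of its group, among the named probe sets, the means of the lists per array and the control measures. Of 328 groups tested 30 had a gap above Dixon's 95% critical value, which is 9.15%, where chance gives about 1 in 20, and 12 of the 30 fell on HCR sedentary 2 and 6 on HCR trained 3. Values are log2 signals for genes and deviations from the average of all arrays for lists.

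On HCR trained 3, Cox6a1 read 10.30, Cox8b 13.69, Myh7 12.05 and Lpl 10.52, and the mean of the slow fibre list was -2.20 and that of the satellite cell list -0.70. On HCR sedentary 2, Cs read 11.67, Cox8b 13.20 and Myh4 8.03. The list means on that array were -0.52 for complex II, -0.51 for complex III, -0.35 for complex V, -0.52 for the citric acid cycle, -0.98 for fatty acid oxidation and -0.83 for fatty acid uptake and storage. They were 1.59 for the extracellular matrix, 0.39 for the cytosolic ribosome and 0.53 for proliferation.

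Among the other HCR arrays, Epc1 read 5.88 on HCR trained 4 and Cox6a2 14.15 on HCR trained 2, the smooth muscle mean was 0.09 on HCR sedentary 3, and the GAPDH index was 0.73 on HCR sedentary 4. In LCR, Ppargc1a read 7.97 and the beta-actin index 1.06 on LCR trained 2. Styxl1 read 5.96 and Ucp3 8.50 on LCR sedentary 3, and Tfam read 9.75 and the Schwann cell mean 0.12 on LCR sedentary 1. On LCR sedentary 2 the mean of the extracellular matrix list was 0.06 and that of the macrophage list 0.05, against -0.49 to -0.41 and -0.38 to -0.35 on the other LCR sedentary arrays. Cox7a1 was not among these values.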

How the results depend on the processing

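Cox7a1 kept its direction under all 29 alternatives and passed under 27. It did not pass in fits of 8 arrays alone, at 2.00 in HCR and 1.67 in LCR. With single arrays left out it was 1.72 to 1.91. The count of 2 probe sets was 1 in an additive model or without line, 5 (3 higher, 2 lower) after quantile normalization, 1148 (794 higher, 354 lower) with array weights, 131 without the 2 arrays that stand apart, 0 in HCR or LCR alone (3981 and 4541 at an unadjusted p under 0.05), and 1 to 72 with single arrays left out. The variance trend with robust moderation and the beta-actin covariate gave 3 each. The interaction count of 0 was 1 after quantile normalization or median centring, 233 with array weights, 22 without the 2 arrays and 0 to 185 with single arrays left out. The count of 26 without overlap was 17 after median centring and 134 without the 2 arrays. The replicate number as a block gave 2 calls, of which 1, Cox7a1 at 1.84, was shared, while 1373859_at did not pass. Signs turned for Vegfa with array weights (-0.0025), for Lpl without HCR trained 3 (0.06), and for Sdha without HCR sedentary 2 or the 2 arrays (-0.01), where single arrays left out gave up to 0.10, and gave -0.34 to 0.06 for Lpl. Signs turned in HCR alone for Cox6a2 (0.03), Myh2 (-0.08), Dcn (-0.17) and Prx (0.18), and in LCR alone for Myh7 (0.0042), Hk2 (0.33), Slc2a4 (-0.01), Lpl (0.04), Sdhd (-0.003), Sdha (-0.04), Gpd1 (-0.34), Pln (-0.03), Rcan1 (0.26), Cd74 (0.47) and Plk1 (0.01). The cause was not tested. Alternatives without the 2 arrays for the lines' correlation and lists were chosen after seeing the data. Limits are the 4 rats per group, 1 probe set for Cox7a1, values without detection calls, and scan batches, which were not tested.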

Other observations

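Among the 131 probe sets that passed without the 2 arrays that stand apart, Fn3k, a kinase that removes sugar adducts from proteins, rose by 0.62 (adjusted p = 0.0113) and differed by 0.91 with all. Pebp1, an inhibitor of the Raf kinase, fell by 0.31 without them (adjusted p = 0.0113) and differed by -0.28 with all. Both genes stand outside the lists and were picked after their values were seen. The blood cell markers, 5 measured genes, had a median of 0.05 over both lines, and proliferation genes one of -0.03, or 0.06 without HCR sedentary 2. The creatine and energy shuttle list had 13 of 18 genes higher at 0.05, with Got2, mitochondrial aspartate aminotransferase, at 0.20 and Vdac2, a channel of the outer membrane, at 0.12. Among hypoxia genes Epas1, a hypoxia-inducible factor of endothelium, differed by 0.26 and Bnip3 by -0.12.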
